A study of Mus musculus with 6 samples.

Results

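The 42 genes described here serve the unfolded protein response, by which a cell senses misfolded protein in the endoplasmic reticulum (ER), and the path that secreted proteins take through the ER. They were taken from a list of symbols, with the brightest probe above background standing for each gene, and compared between pTreg cells with Blimp1 (Ctrl, 3 arrays) and without it (CKO, 3 arrays) on the Illumina MouseWG 6v2 platform. A value is a normalized intensity, and differences are given as the log2 fold change of CKO over Ctrl with its standard error (SE). Of the 42 genes, 40 had a probe named for them and 35 could be tested, among 9597 genes tested on the arrays and 19057 genes with a named probe.

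Ctrl cells came from Prdm1+/+CD4-Cre+ donors and CKO cells from C57BL/6Prdm1flox/floxCD4-Cre+ donors, so both genotypes carried CD4-Cre, which acts in all T cells from the thymus on, and both carried a Foxp3-GFP reporter. Naive CD4+ cells of young adult donors of both genotypes, marked by Thy1.1 (Ctrl) and Thy1.2 (CKO), had been transferred together into RAG1-/- mice. These mice make no T or B cells of their own but keep myeloid cells. CD4+ Foxp3-GFP+ cells were sorted weeks later, so the cells are those that became Foxp3+ in a lymphopenic host. Spleen, mesenteric lymph nodes and large intestine were taken, and the methods do not say which of them gave the RNA. Donor cells had been drawn from pooled lymph nodes and spleen. One label field reads iTreg where another reads peripheral Treg cells. A stimulus, P+I, is written for replicates 2 and 3 and none for replicate 1. Ctrl and CKO arrays of replicate 1 share slide 1, and those of replicates 2 and 3 share slide 2 and, within each number, a date, so that each number is a Ctrl and CKO pair.

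Misfolded protein in the ER is sensed by IRE1, PERK and ATF6. IRE1 splices the mRNA of Xbp1, whose protein then activates genes of the secretory pathway, PERK phosphorylates eIF2α, which slows translation while ATF4 and then CHOP are made, and ATF6 is cut in the Golgi to release a transcription factor. In B cells, Blimp1 drives the differentiation of antibody-secreting plasma cells, in which Xbp1 and the ER expand, and for that reason the genes were compared here between pTreg cells with and without Blimp1.

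Prdm1, which encodes Blimp1, had intensities of 18.9, 50.9 and 49.2 in Ctrl replicates 1 to 3 and of 561, 341 and 704 in CKO replicates 1 to 3, and so was higher in the CKO cells. Whether this probe lies within the deleted part of Prdm1 is not known here, so it checks nothing about the deletion. The study also listed Prdm1 as higher and Il10 as lower in Blimp1-deficient cells. Here Il10 had a log2 fold change of -5.45 (SE 0.30, limma adjusted p = 0.001) and Foxp3 of 0.03 (SE 0.51). All 8 T cell markers with a probe were above background, with a summed intensity of 18493 to 22934 in Ctrl and of 11442 to 14058 in CKO. Of 9 myeloid markers with a probe, 7 were measured, and their sum was 28556, 2759 and 33169 in Ctrl replicates 1 to 3 and 13701, 2031 and 23413 in CKO replicates 1 to 3, while Adgre1 and Itgam were at background on every array. Of 7 markers of B and plasma cells with a probe 2 passed the filter, the values above background summed to 0 to 30.2 in Ctrl and 9.29 to 10.4 in CKO, and Blnk and Tnfrsf17 were at background on every array. Erythroid markers summed to 531 to 1922 in Ctrl and 557 to 1629 in CKO, with Hbb-b2 at background on every array. Cd8a, Klrb1c and Ncr1 were at background on every array and Cd8b1 was not, and this list summed to 692 to 1072 in Ctrl and 555 to 951 in CKO. Epithelial markers, of which Epcam and Krt19 were at background on every array, summed to 0 to 74.9 in Ctrl and 22.2 to 42.5 in CKO. In bulk RNA, fewer cells with a transcript and less of it per cell cannot be told apart.

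Some promoters of these genes hold elements of the ER stress response. The members were listed as genes of that response, so a larger share among them than elsewhere describes the list and tests nothing. The ER stress response element ERSE, bound by ATF6 with NF-Y, reads CCAAT, 9 bases of any kind and CCACG, and it was searched on both strands of RefSeq promoters (GRCm38.p6, 250 bases before to 50 after the start site), which the table holds for 35 of the 42 genes. It was found in the promoters of 8 of these 35 genes and in 39 of all 32851 promoters (0.119%). Counted by gene, 12 of 7870 tested genes with a promoter held it (0.152%). The matches below are read in the direction of the element, with its fixed letters in capitals and the free letters in lower case, and they show which genes carry it.
Hspa5 (chr2:34772025-34772043, plus strand): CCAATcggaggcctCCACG
Calr (chr8:84847075-84847093, plus strand): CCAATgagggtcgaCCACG
Hsp90b1 (chr10:86705638-86705656, minus strand): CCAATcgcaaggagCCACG
Hsp90b1 (chr10:86705533-86705551, plus strand): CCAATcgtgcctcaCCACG
Canx (chr11:50325800-50325818, minus strand): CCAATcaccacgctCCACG
Pdia6 (chr12:17266491-17266509, plus strand): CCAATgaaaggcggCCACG
Dnajc3 (chr14:118937827-118937845, plus strand): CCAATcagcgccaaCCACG
Creld2 (chr15:88819520-88819538, minus strand): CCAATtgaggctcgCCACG
Syvn1 (chr19:6046532-6046550, plus strand): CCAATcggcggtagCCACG
The related element ERSE-II, which reads ATTGG, any base and CCACG, was found in 2 of the 35 genes, Herpud1 and Dnajb11, and in 12 of all promoters (0.0365%).
Herpud1 (chr8:94386377-94386387, plus strand): ATTGGgCCACG
Dnajb11 (chr16:22857852-22857862, plus strand): ATTGGcCCACG
The element of ATF4 and its partners, CARE, was searched as TGATGNAA, where N is any base, and found in 3 of the 35 genes, Asns, Herpud1 and Trib3, and in 3.97% of all promoters. The element UPRE, searched as TGACGTGG, was found in 1 of the 35, Sec24d, and in 0.676% of all promoters. The core of the Blimp1 motif, GTGAAAG, was found in 2 of the 35, Sec61b and Creld2, and in 4.24% of all promoters. Counted by gene, 0.0889% of 7870 tested genes with a promoter held ERSE-II, 2.91% CARE, 1.07% UPRE and 4.45% the Blimp1 core. The elements ERSE, ERSE-II, UPRE and CARE were fixed as exact strings, so variants of them were not counted, ERSE and ERSE-II share CCACG and, on opposite strands, CCAAT, and a match is a run of letters, not a bound site.

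The promoters of 4 genes are given whole, in the direction of transcription, since the results below turn on the PERK gene Eif2ak3, the CHOP gene Ddit3 and the ATF4 target Asns, and Hspa5, the gene of BiP, is the classical ERSE gene. Capitals mark the fixed letters of the elements named above.
Eif2ak3 (chr6:70844265-70844564, plus strand): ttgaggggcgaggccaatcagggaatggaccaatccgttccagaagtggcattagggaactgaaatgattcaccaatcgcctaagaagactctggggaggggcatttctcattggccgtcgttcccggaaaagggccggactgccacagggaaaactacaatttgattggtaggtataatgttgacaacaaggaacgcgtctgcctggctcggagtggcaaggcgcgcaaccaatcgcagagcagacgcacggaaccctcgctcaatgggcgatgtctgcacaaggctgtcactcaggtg
Ddit3 (chr10:127290543-127290842, plus strand): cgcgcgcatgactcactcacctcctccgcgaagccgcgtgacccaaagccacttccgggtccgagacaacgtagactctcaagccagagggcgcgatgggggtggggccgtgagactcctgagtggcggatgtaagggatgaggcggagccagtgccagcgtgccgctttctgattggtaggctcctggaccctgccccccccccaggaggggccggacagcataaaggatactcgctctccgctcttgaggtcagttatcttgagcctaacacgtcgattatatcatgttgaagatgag
Asns (chr6:7693160-7693459, minus strand): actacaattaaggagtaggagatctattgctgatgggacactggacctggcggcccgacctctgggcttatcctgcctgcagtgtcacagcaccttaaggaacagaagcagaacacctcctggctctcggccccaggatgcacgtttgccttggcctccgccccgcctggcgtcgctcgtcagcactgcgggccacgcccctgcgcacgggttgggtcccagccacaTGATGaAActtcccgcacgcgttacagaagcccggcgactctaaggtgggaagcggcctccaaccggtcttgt
Hspa5 (chr2:34771840-34772139, plus strand): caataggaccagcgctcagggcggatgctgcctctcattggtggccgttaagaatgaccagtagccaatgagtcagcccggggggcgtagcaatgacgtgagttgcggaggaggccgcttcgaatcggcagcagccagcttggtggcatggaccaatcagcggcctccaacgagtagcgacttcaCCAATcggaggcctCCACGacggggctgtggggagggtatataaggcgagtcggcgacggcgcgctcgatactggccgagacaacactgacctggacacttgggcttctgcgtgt
The promoters of Eif2ak3 and Ddit3 held none of the 5 strings.

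As a group, the 35 tested genes lay around 0. Their median log2 fold change (CKO over Ctrl) was -0.03, beside 0.02 over all 9597 genes, and 16 lay above 0 and 19 below it, as did 52.4% and 47.6% of all genes. The median was 0.18 in pair 1, -0.03 in pair 2 and -0.11 in pair 3, where the medians over all genes were 0.07, 0.04 and -0.07. In limma, none of the 35 reached an adjusted p under 0.05 in either direction, where 0.115% of all genes were higher and 0.156% lower in CKO. Eif2ak3 and Ddit3, 2 of the 35, had an unadjusted p under 0.05 in limma, as did 8.1% of all genes. Both were lower in CKO by at least 1.5-fold and so met the thresholds of the study, which are this fold and this p, while no member met them higher. Among all genes tested, 4.35% met these thresholds lower in CKO and 3.09% higher, so that 2 of 35 is near the background. Standard errors of the log2 fold changes lay between 0.21 and 0.50, with a median of 0.31. For 19 of the 35 genes the 95% interval of the difference lay within 2-fold in both directions, but only for Edem2 and Sec61a1 did it lie within 1.5-fold. For the other genes, 3 arrays per group could not exclude a 1.5-fold difference in at least 1 direction.

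**Figure D1:**
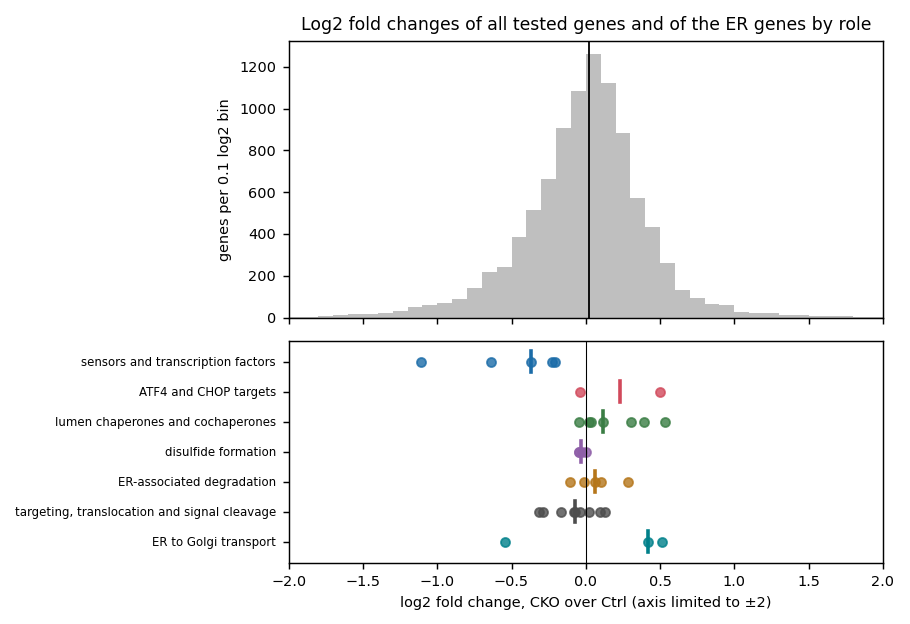
Top, number of genes per 0.1 bin of log2 fold change (CKO over Ctrl) among 9597 tested genes, with a line at their median of 0.02, on an axis that ends at 2 on both sides and leaves out 39 genes. Bottom, the 35 ER genes by role, a point per gene and a bar at the median of the role. The points lie around 0, and the 5 sensors and transcription factors all lie below it, as do 47.6% of all genes. Those of Xbp1, Ern1 and Atf4 did not keep this sign under every alternative.

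The sensors and transcription factors had the lowest median of the roles, at -0.37, and all 5 that were tested had log2 fold changes below 0, from -1.11 to -0.21, though those of Xbp1, Ern1 and Atf4 did not keep this sign under every alternative, as given below. Eif2ak3, which encodes PERK, had intensities of 24.3, 24.8 and 32.6 in Ctrl replicates 1 to 3 and of 17.2, 10.3 and 10.9 in CKO replicates 1 to 3. Every CKO array lay below every Ctrl array, and the CKO arrays of slide 2 were close to their background levels of 9.14 and 8.90. The gene was 2.16-fold lower in CKO (log2 fold change -1.11, standard error 0.28, 95% interval -1.75 to -0.47), from 27.2 ± 4.64 (SD, n = 3) to 12.8 ± 3.81 (SD, n = 3). It met the study's thresholds but not an adjusted p of 0.05 (limma adjusted p = 0.23, and 0.068 to 0.80 under the alternatives), with -0.49, -1.26 and -1.57 in pairs 1, 2 and 3. Its size depended on the floor near background, with log2 fold changes of -0.79 at a 99th percentile background and of -0.59 with no floor and 16 added to each value. The second Eif2ak3 probe lay at background throughout.

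Ddit3 encodes CHOP, a transcription factor made late in the PERK branch. It had intensities of 280.3, 243 and 186 in Ctrl replicates 1 to 3 and of 167, 173 and 116 in CKO replicates 1 to 3. All CKO values lay below the lowest Ctrl value. The log2 fold change was -0.64 (SE 0.27, limma adjusted p = 0.59), or 1.56-fold lower, and it was -0.74, -0.49 and -0.68 in the 3 pairs. A second, dimmer probe gave 131, 127 and 109.8 in Ctrl and 63.6, 75.9 and 60.0 in CKO, a log2 fold change of -0.89 (SE 0.22). For Ddit3 the study's thresholds were no longer met without Ctrl replicate 1 (-0.50), Ctrl replicate 2 (-0.61), CKO replicate 1 (-0.72) or CKO replicate 3 (-0.45), nor without any pair, where it lay between -0.71 and -0.58, while Eif2ak3 met them in every such fit. The summed T cell markers and, in each pair, the summed myeloid markers were also lower in CKO. Of 15 tested genes induced soon after stimulation, 6 lay above 0 and 9 below it, with a median log2 fold change of -0.10, a range of -0.62 (Egr1) to 0.76 (Nr4a2), and none at an unadjusted p under 0.05 in limma. The part of these markers and genes in the differences of Eif2ak3 and Ddit3 was not tested.

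Eif2ak3 and Ddit3 were the only members whose CKO values all lay below their Ctrl values, as did those of 7.1% of all genes. The other sensors and factors did not differ beyond the spread between arrays. Xbp1, the factor of the IRE1 branch, had intensities of 3884, 2580 and 3364 in Ctrl replicates 1 to 3 and of 4095, 1956 and 2612 in CKO replicates 1 to 3. The groups overlapped, and the higher value was that of CKO in pair 1 and that of Ctrl in pairs 2 and 3. Its log2 fold change was -0.23 (SE 0.32, 95% interval -0.97 to 0.51, limma adjusted p = 0.95), and leaving out 1 array moved it from -0.52 (without CKO replicate 1) to 0.02 (without CKO replicate 2). Its single probe gives no separate value for the spliced mRNA. Atf4 had intensities of 1900.0, 2241 and 1496 in Ctrl and of 1772, 1549 and 1499 in CKO, with a log2 fold change of -0.21 (SE 0.24), and its second probe went the other way, at 0.37 (SE 0.26), so that the mean of both probes gave 0.08. The sensor gene Ern1, which encodes IRE1, had 32.6, 49.8 and 95.5 in Ctrl and 34.7, 49.0 and 42.6 in CKO. Its log2 fold change of -0.37 (SE 0.39) rested on Ctrl replicate 3, without which it was 0.05. A second Ern1 probe, above background on 2 arrays, gave 0.15 (SE 0.22), and the mean of both probes gave -0.11. The 2 probes of Atf6, the third sensor, were above background on 1 array and on none, and it was not tested.

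**Figure D2:**
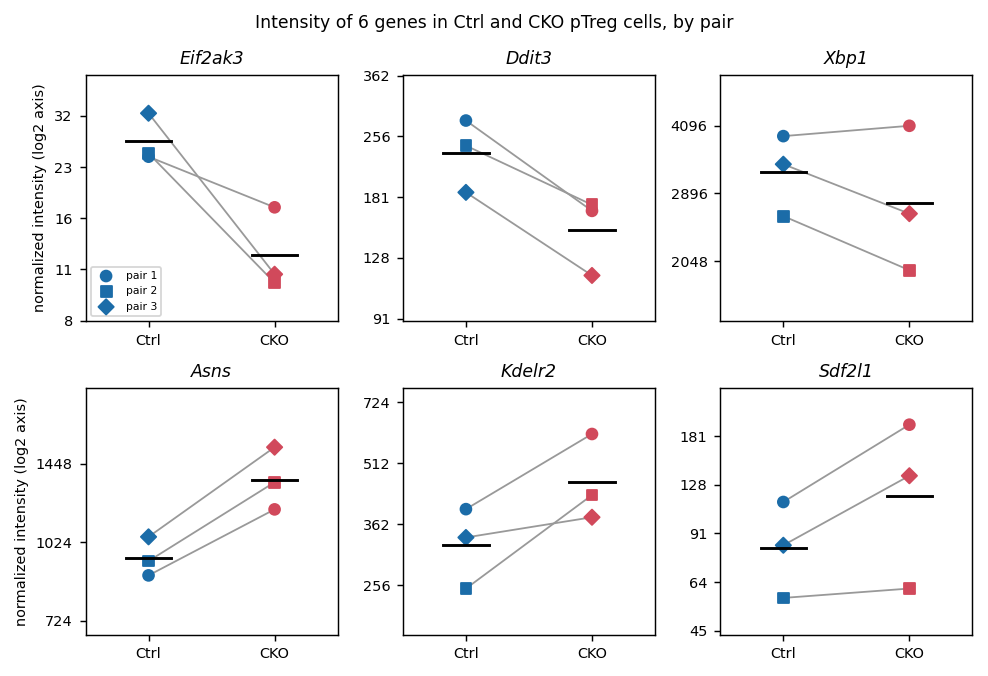
Normalized intensity, on a log2 axis that differs between panels, of 6 genes in pTreg Ctrl and CKO cells. Points are single arrays with a symbol per pair, grey lines join the Ctrl and CKO array of a pair, and black bars are means of log2 values. Eif2ak3 and Ddit3 are lower and Asns, Kdelr2 and Sdf2l1 higher in CKO in all pairs, while the lines of Xbp1 differ in direction.

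Asns, an ATF4 target that encodes asparagine synthetase, lay on the other side. Its intensities were 885, 943 and 1049 in Ctrl replicates 1 to 3 and 1184, 1335 and 1559 in CKO replicates 1 to 3. The lowest CKO value was above the highest Ctrl value. The log2 fold change was 0.50 (SE 0.22, limma adjusted p = 0.63), or 1.41-fold, with 0.42, 0.50 and 0.57 in the 3 pairs. It was below the study's 1.5-fold, and it met both thresholds only without CKO replicate 1 (0.59). Its other probes above background were also higher in CKO, by 0.57 (SE 0.38) and 0.30 (SE 0.31). Trib3, a pseudokinase gene that CHOP and ATF4 activate, had intensities of 45.1, 21.6 and 58.0 in Ctrl and of 30.2, 28.9 and 60.1 in CKO, with a log2 fold change of -0.04 (SE 0.44). Its values overlapped, and both it and Asns hold the CARE string.

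Lumen chaperones hold new proteins while they fold. Of the 10 such genes 7 were tested, with log2 fold changes from -0.05 to 0.53 and a median of 0.12. Hspa5, the gene of BiP, had intensities of 13.2, 27.1 and 56.2 in Ctrl replicates 1 to 3 and of 19.5, 31.7 and 29.6 in CKO replicates 1 to 3, on a dim probe. Its groups overlapped, and it was higher in CKO in pairs 1 and 2 and lower in pair 3, by 0.56, 0.22 and -0.92. Hsp90b1, the ER member of the HSP90 family, had 1152, 1809 and 2348 in Ctrl and 1799.9, 1488 and 1974 in CKO, and Calr, the lectin chaperone calreticulin, had 168, 190.2 and 229 in Ctrl and 95.9, 334 and 241 in CKO. These genes had log2 fold changes of -0.05, 0.04 and 0.02, with standard errors of 0.50, 0.30 and 0.44. Calr lay at -0.81 in pair 1 and 0.81 in pair 2, so the pairs differed more than the genotypes.

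The other chaperone genes had log2 fold changes above 0, none past the threshold. Sdf2l1, which works with BiP and its J-domain partners, had intensities of 113, 57.2 and 83.2 in Ctrl replicates 1 to 3 and of 196, 61.2 and 137 in CKO replicates 1 to 3. It was higher in CKO in each pair, but the groups overlapped because pair 2 was low in both genotypes. The log2 fold change was 0.53 (SE 0.45, limma adjusted p = 0.90), and 1.01 without CKO replicate 2, where it met the study's thresholds. Creld2, an ER stress gene, had 418, 372 and 589 in Ctrl and 561, 468 and 658 in CKO, with 0.31 (SE 0.26), and its second probe had 0.43 (SE 0.25). Dnajc3, which encodes the BiP cochaperone p58IPK, had 96.2, 133 and 323 in Ctrl and 174, 165 and 323 in CKO. Its log2 fold change was 0.39 (SE 0.48), and 0.89 without Ctrl replicate 3, where it met the study's thresholds. Dnajb9, another BiP partner, had 209.9, 245 and 274 in Ctrl and 422, 282 and 151 in CKO, so that the pairs ran from 1.01 to -0.86. The single probe of Canx was above background on no array and that of Manf on 1, and no probe is named Dnajb11 in the annotation used here.

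By promoter, the 7 tested genes with an ERSE were Hspa5, Calr, Hsp90b1, Pdia6, Dnajc3, Creld2 and Syvn1. Their median log2 fold change was 0.04 and their range -0.05 to 0.39, beside a median of -0.04 over the 28 tested genes without it. None of the 7 had an unadjusted p under 0.05 in limma, with or without the pair as a block.

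Disulfide bonds are formed in the ER by protein disulfide isomerases. All 4 that were tested had log2 fold changes near 0, from -0.05 to 0.00. Pdia4, whose change was the largest of them, had intensities of 234, 182 and 261 in Ctrl replicates 1 to 3 and of 280.2, 135 and 265 in CKO replicates 1 to 3. Its groups overlapped, with a log2 fold change of -0.05 (SE 0.33), and of 0.29 without CKO replicate 2. Pdia3 was at 1518 ± 226 in Ctrl and 1562 ± 469 in CKO, P4hb at 2724 ± 227 and 2693 ± 638, and Pdia6 at 44.5 ± 17.4 and 45.1 ± 23.7 (± SD, 3 arrays each). The 95% intervals were -0.68 to 0.69 for Pdia3, -0.63 to 0.54 for P4hb and -1.07 to 1.02 for Pdia6, so a 2-fold change lay outside them for the first and second only. Neither of 2 probes of Ero1l, the oxidase that feeds these enzymes, was above background on any array.

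ER-associated degradation sends misfolded proteins back to the cytosol for destruction. Syvn1, the ubiquitin ligase of this pathway, had intensities of 1727, 1487 and 1823 in Ctrl replicates 1 to 3 and of 2191, 1922 and 2003 in CKO replicates 1 to 3. All CKO values were above all Ctrl values, by a log2 fold change of 0.28 (SE 0.21, limma adjusted p = 0.87). Its partner Sel1l had 192, 123 and 152 in Ctrl and 266, 116 and 133 in CKO, with 0.06 (SE 0.36). Herpud1, a membrane protein of the complex, was at 1268 ± 201 in Ctrl and 1169 ± 101 in CKO (± SD, 3 arrays each), and Edem2, a mannosidase-like protein, at 1176 ± 152 and 1174 ± 238 (± SD, 3 arrays each). Their log2 fold changes were -0.11 and -0.01, with standard errors of 0.23 and 0.24. Edem1, of the same family as Edem2, was above background on 1 of 3 Ctrl and on 3 of 3 CKO arrays, at 24.3 in Ctrl replicate 1 and 11.3 to 17.0 in CKO, with a log2 fold change of 0.10 (SE 0.41) that takes the background level for Ctrl replicates 2 and 3.

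**Figure D3:**
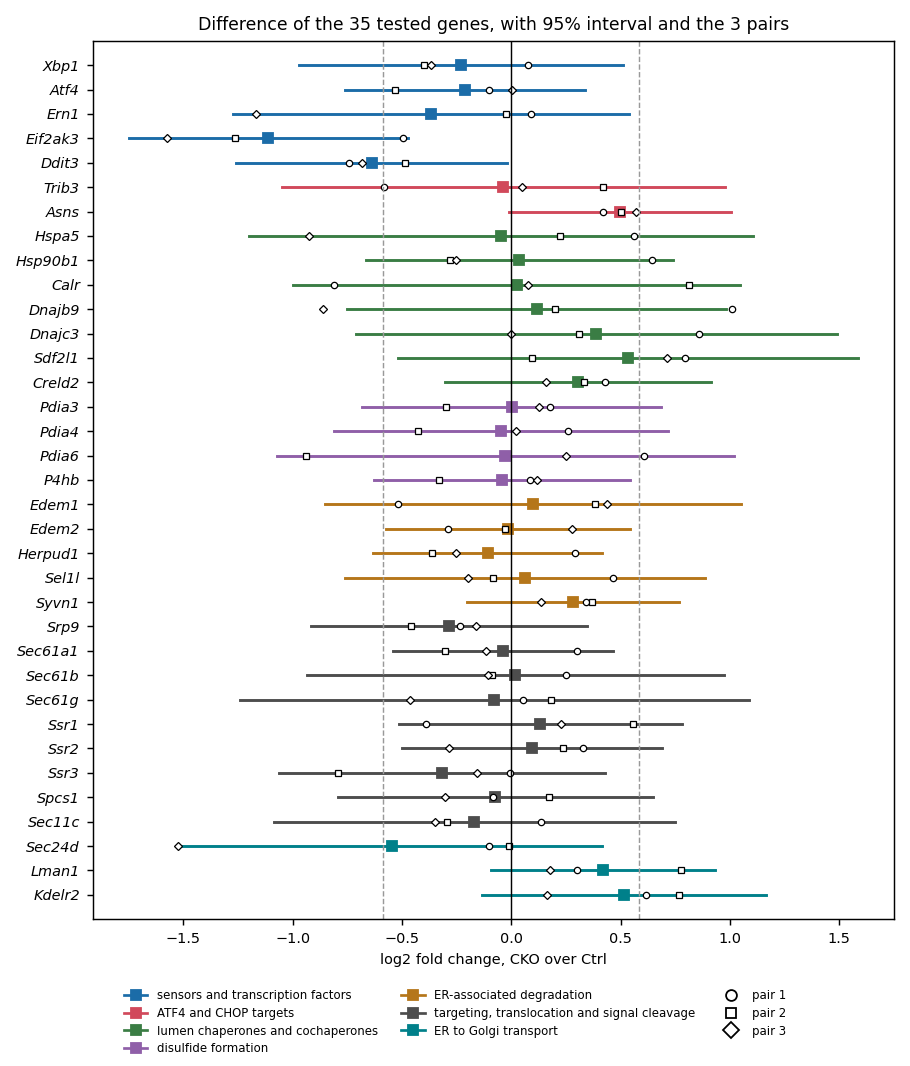
Log2 fold change (CKO over Ctrl) of the 35 tested genes, ordered and colored by role. Squares are the limma estimates with their 95% intervals, open symbols are the 3 pairs, and dashed lines mark 1.5-fold. The intervals of Eif2ak3 and Ddit3 lie below 0, and all others cover it.

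The signal recognition particle and the Sec61 channel bring nascent proteins into the ER, where the signal peptidase removes their signal sequence. All 9 tested genes of this group lay between -0.32 and 0.13, with a median of -0.07. Ssr3, a subunit of the translocon-associated complex, had intensities of 1124, 1092 and 1492 in Ctrl replicates 1 to 3 and of 1121, 630.3 and 1339 in CKO replicates 1 to 3. Its log2 fold change was -0.32 (SE 0.32), carried by pair 2 at -0.79, and 0.00 without CKO replicate 2. Srp9, a subunit of the particle, had 303, 355 and 447 in Ctrl and 257, 259 and 399 in CKO, with -0.28 (SE 0.27) and lower values in CKO in every pair. Sec61a1, the channel itself, was at 931 ± 123 in Ctrl and 903 ± 71.7 in CKO (± SD, 3 arrays each), Ssr1 at 129.75 ± 45.4 and 137 ± 6.37 and Ssr2 at 1768 ± 401 and 1870.0 ± 297 (± SD, 3 arrays each). The single probe of Spcs2, a signal peptidase subunit, was above background on 1 array.

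In 4 genes of this group the arrays of slide 1 lay below those of slide 2. Sec61g had 922, 2235 and 2811 in Ctrl replicates 1 to 3 and 956, 2533 and 2039 in CKO replicates 1 to 3, so both arrays of slide 1 lay below all 4 of slide 2. Sec61b showed the same order, with 243, 544 and 594 in Ctrl and 288, 512 and 551 in CKO. Sec11c, a catalytic subunit of the signal peptidase, had 143, 319 and 347 in Ctrl and 157, 260.2 and 272 in CKO, and Spcs1, another of its subunits, had 1529.8, 2180.4 and 2727 in Ctrl and 1442, 2457 and 2208 in CKO. Slide 2 was above slide 1 by 1.35, 1.06, 0.99 and 0.68 on the log2 scale in a limma fit with slide and genotype, at adjusted p-values of 0.13, 0.13, 0.14 and 0.21. In the same fit Hspa5, Calr, Dnajc3 and Ern1 were also higher on slide 2, by 1.10, 0.94, 0.76 and 0.74. Edem1, Sdf2l1, Sel1l, Xbp1 and Kdelr2 were lower on it, at -0.96, -0.91, -0.80, -0.63 and -0.52. None of these slide differences passed an adjusted p of 0.05 in limma, where 0 of all 9597 genes did (1756 had an unadjusted p under 0.05). Srp9 had a slide difference of 0.36 (adjusted p = 0.48). The genotype differences of Sec61g, Sec61b, Sec11c and Spcs1 were -0.08, 0.02, -0.17 and -0.07. Slide, day and the stimulus named in the labels cannot be told apart. Of the genes induced soon after stimulation, Il2 had 9308, 9867 and 13107 in Ctrl replicates 1 to 3 and 8597, 11086 and 6980 in CKO. Ifng had 18891, 4885 and 27726 in Ctrl and 24440, 18347 and 18597 in CKO. Whether replicate 1 was stimulated like the other replicates was not tested. The genes named for the slide were singled out after their values were seen.

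**Figure D4:**
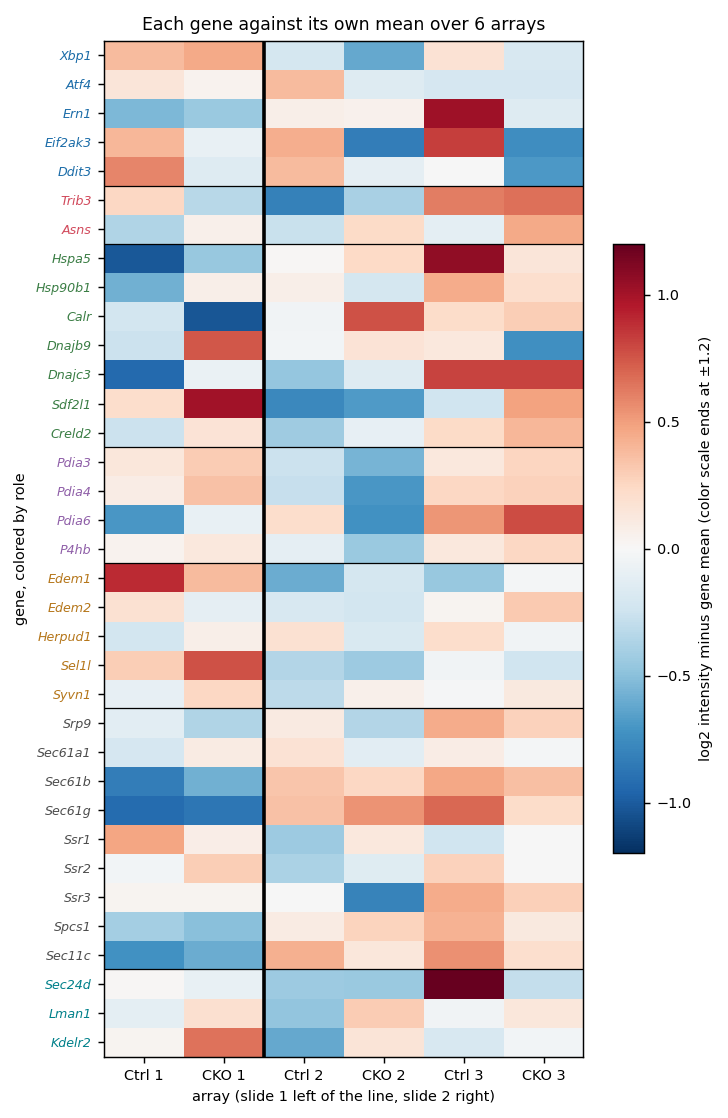
Log2 intensity of the 35 tested genes on each array minus the gene's mean over the 6 arrays, with the arrays of slide 1 left of the black line and genes grouped and colored by role. Sec61g, Sec61b, Sec11c and Spcs1 are below their means on both arrays of slide 1, and Eif2ak3 is below its mean on the 3 CKO arrays.

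COPII coats and their cargo receptors carry folded proteins to the Golgi. Kdelr2, a receptor that returns escaped ER proteins, had intensities of 395, 251 and 336 in Ctrl replicates 1 to 3 and of 605, 427 and 377 in CKO replicates 1 to 3. It was higher in CKO in every pair, by 0.62, 0.77 and 0.17, and the groups overlapped, since CKO replicate 3 lay below Ctrl replicate 1. The log2 fold change was 0.52 (SE 0.28, limma adjusted p = 0.74). Lman1, a cargo receptor also known as ERGIC-53, had 87.8, 68.4 and 92.5 in Ctrl and 108, 117 and 105 in CKO. All CKO values lay above the Ctrl values, with 0.42 (SE 0.22, limma adjusted p = 0.73). Sec24d, a COPII coat subunit, had 12.6, 9.20 and 29.5 in Ctrl and 11.7, 9.14 and 10.3 in CKO, where CKO replicate 2 was at background. Its log2 fold change of -0.55 (SE 0.42) came from pair 3, at -1.52, beside -0.10 and -0.01 in pairs 1 and 2. No probe is named Sec23b in the annotation used here.

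Asns, Syvn1 and Lman1 were the 3 members whose CKO values all lay above their Ctrl values, as did those of 5.95% of all genes. Over the pairs, 7 of the 35 genes were higher in CKO in all 3 (Asns, Dnajc3, Sdf2l1, Creld2, Syvn1, Lman1 and Kdelr2), beside 19.5% of all genes, and 5 were lower (Eif2ak3, Ddit3, Srp9, Ssr3 and Sec24d), beside 18.1%. The log2 fold change of Dnajc3 in pair 3 was 0.00 and that of Ssr3 in pair 1 was -0.00. With the pair as a block, Eif2ak3, Ddit3, Asns, Kdelr2 and Sdf2l1 had an unadjusted p under 0.05 in limma, at adjusted p-values of 0.083, 0.16, 0.25, 0.28 and 0.29. These are 5 of the 35 members, and in the same fit 1537 of all 9597 genes had an unadjusted p under 0.05. No member reached an adjusted p under 0.05 there, as 0.719% of all genes did higher and 1.11% lower, and Eif2ak3 and Ddit3 were again the 2 that met the study's thresholds, which 7.28% of all genes met lower and 4.76% higher. With the slide as a block, no member reached an adjusted p under 0.05, beside 0.0313% of all genes in the higher and 0.135% in the lower direction, and the same 2 members met the study's thresholds, as 5.13% of all genes did lower and 3.65% higher. The genotype difference itself differed between slides at an unadjusted p under 0.05 in limma for 2.43% of all genes and for none of the 35.

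Beyond the 42 genes, 150 other genes of the same pathways were listed and 124 tested. Their median log2 fold change was 0.07. In limma none reached an adjusted p under 0.05 and 4 reached an unadjusted one, as did 8.1% of all genes. At the study's thresholds 1 was higher and 2 were lower, beside 3.09% and 4.35% of all genes. With the pair as a block, 14 of the 124 had an unadjusted p under 0.05, as did 1537 of all 9597 genes. The thresholds were then met by 2 higher and 7 lower, beside 4.76% and 7.28% of all genes. Among 20 tested ATF4 and CHOP targets, Mthfd2, a mitochondrial folate enzyme, had intensities of 1692, 1484 and 1817 in Ctrl replicates 1 to 3 and of 2371, 2313 and 2371 in CKO replicates 1 to 3, and Eprs, a transfer RNA synthetase, had 155, 206 and 187 in Ctrl and 221, 277 and 287 in CKO. As with Asns, all CKO values lay above all Ctrl values, as did those of 5.95% of all genes. The log2 fold changes were 0.50 (SE 0.21) and 0.52 (SE 0.23), below 1.5-fold. The median of these 20 targets was 0.13, with 15 above 0 and 5 below and the lowest at -0.74. Without a block 0 of the 20 met the study's thresholds. With the pair as a block 2 met them lower in CKO and 0 higher.

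Among 15 tested sensors and feedback genes, with a median of -0.17, Eif2ak2, which encodes the eIF2α kinase PKR, had 93.0, 129 and 157 in Ctrl and 57.4, 65.01 and 80.8 in CKO. It was lower at the study's thresholds, with a log2 fold change of -0.88 (SE 0.27, limma adjusted p = 0.35). Cebpb, a transcription factor that pairs with CHOP, had 1209.7, 513 and 872 in Ctrl and 579, 367 and 569.9 in CKO, with -0.72 (SE 0.36), and met the thresholds only with the pair as a block (limma adjusted p = 0.15). Of 18 tested folding genes, with a median of 0.15, Cnpy3, a chaperone of Toll-like receptors, was lower at the study's thresholds, at 22.0 ± 9.24 in Ctrl and 11.7 ± 0.454 in CKO (± SD, 3 arrays each), and Pdia5 was at 10.9 ± 1.93 and 18.5 ± 8.54 (± SD, 3 arrays each). Pdia5 met them only with the block (limma adjusted p = 0.26), and it was at background in replicate 2 of both genotypes. Cnpy3 in CKO, at 11.2, 11.9 and 12.0 in replicates 1 to 3, was near the background levels of 7.52, 9.14 and 8.90.

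Of 13 tested genes of ER-associated degradation, with a median of 0.08, Ube2g2, a ubiquitin-conjugating enzyme of the pathway, was higher at the study's thresholds. It had 14.4, 17.0 and 19.7 in Ctrl and 36.3, 31.2 and 28.3 in CKO, with a log2 fold change of 0.91 (SE 0.23, limma adjusted p = 0.23), and Ube2j2 had 0.35 (SE 0.31). None of 26 tested genes of translocation and glycosylation (median 0.13) and none of 32 of ER to Golgi transport (median 0.02) met the thresholds. In these lists the smallest p-values were those of Ddost and Srprb, with log2 fold changes of 0.46 (SE 0.23) and 0.42 (SE 0.24), and of Sec24b and Tmed2, with 0.47 (SE 0.22) and -0.51 (SE 0.30).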

How the data were processed

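RNA of sorted pTreg cells was measured on 6 Illumina MouseWG 6v2 arrays, grouped by the genotype in the labels. The deposited values are linear intensities, exported from Genome Studio and quantile normalized by the authors, of which 35.4% to 36.0% per array lie below 0 after background subtraction. Sorted values were equal (within 0.02 units plus 0.1%) for at least 97.1% of probes between arrays of a slide and for at most 4.94% between slides, so the slides had been normalized separately, and all arrays were quantile normalized jointly. Background was set per array from 1506 probes of olfactory and vomeronasal receptors, at their 95th percentile (6.17 to 9.51), lower values were set to it, and values were put on the log2 scale. The detection p-values of the methods were not used here. Probes above background on at least 2 arrays were kept (32.4% to 38.3% of probes were above it per array). Of 45281 probes, 34885 have 1 symbol, 18 several and 10378 none, and 34807 symbols were checked through gene identifiers in RefSeq (GRCm38.p6). The brightest kept probe by mean log2 value stood for a gene, and 14 members had several. A probe's level also depends on its sequence, so levels were compared between arrays and not between genes.

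Genotypes were compared with limma 3.58.1 (R 4.3.3, lmFit and eBayes, no block, as the methods name none), with Benjamini-Hochberg adjustment over 9597 genes. P-values measure the spread between these arrays, which the methods call biological replicates, and their number limits the precision. Samples of a number pair through a shared date or slide, and their deviations from the group means correlated at 0.51, 0.49 and 0.56 over genes. Alternatives were the deposited values, median scaling, no floor, a 99th percentile background, other filters, the mean of probes, eBayes with trend, the pair or slide as a block, and leaving out an array or a pair with the kept probes unchanged. The steps were tested on simulated data. Members, lists and motifs were chosen with earlier results of these data known. Values are given for each sample for the sensors and factors, for members at an unadjusted p under 0.05 with or without the block, for the largest change of each role and for other members chosen after their values were seen, and for other lists the 2 genes of smallest p are named. Promoters are from RefSeq (GRCm38.p6).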

Additional observations from a re-analysis of the deposited data

How the results depend on the processing

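No member passed an adjusted p of 0.05 from limma under any of the 19 alternatives, and the median log2 fold change of the members lay between -0.14 and 0.10. The count of members lower at the study's thresholds was 2 (Eif2ak3 and Ddit3) in the 10 alternatives that kept all arrays, between 1 and 2 when an array was left out and 1 without pair 1, pair 2 or pair 3, where Ddit3 was lost and Eif2ak3 remained. The count of members higher was between 0 and 1 when an array was left out, with Asns without CKO replicate 1, Sdf2l1 without CKO replicate 2 and Dnajc3 without Ctrl replicate 3, and 0 otherwise. With the replicate block, the study's thresholds were met by 0 members higher and by 2 lower, so pairing changed no member's call. Over all genes the adjusted p was under 0.05 for 69 higher and 107 lower ones with this block, for 11 and 15 without it, and for 3 and 13 with the slide as a block. The search for ER retrieval signals at protein ends that had been planned was not run, since protein sequences were not used here. Signals near background limit Eif2ak3, Edem1, Sec24d and Hspa5 among the members, and Cnpy3 and Pdia5 among the other genes. A further 5 members with a probe were too dim to test.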
